A study of Mus musculus with 10 samples.

Results

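The myeloid C-type lectins are described here in granulocyte-macrophage progenitors (GMPs), the bone marrow progenitors of neutrophils and monocytes, with and without recent loss of *Mpc2*, which encodes a subunit of the mitochondrial pyruvate carrier. The set holds 9 named genes of the 51717 genes to which reads could be assigned, namely *Mgl2*, *Clec10a*, *Clec12a*, *Clec5a*, *Clec7a*, *Clec4a2*, *Clec4d*, *Clec4n* and *Cd209a*. *Mgl2* was selected on its lower CPM in the knockout in these same samples, and the fold change between the groups is therefore described without a test. The other 8 genes were added as lectin receptors of the myeloid lineage. Of the 9 genes, 7 passed the filter on low counts, while *Clec4n* and *Cd209a* did not.

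Bulk RNA-seq was performed on 5 samples of WT GMPs (ROSA26 CreER+/-) and 5 samples of recent *Mpc2* KO GMPs (Mpc2fl/fl; ROSA26 CreER+/-), all from male C57Bl6/N mice. Donor marrow carrying CD45.2 had been mixed with CD45.1 marrow and transplanted into irradiated CD45.1 hosts, so that the sorted CD45.2+ GMPs had developed beside unmodified cells. Both groups carried the tamoxifen-inducible Cre, which is expressed from the ubiquitous ROSA26 locus, and both received tamoxifen chow for 2 wk directly before the sort. Each WT sample came from 1 mouse and each recent *Mpc2* KO sample from a pool of 2 mice, and ages were not given in the sources used here. The libraries held 14033776–19745405 estimated reads, with medians of 18121943 in WT GMPs and 15839904 in recent *Mpc2* KO GMPs.

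C-type lectin receptors are transmembrane proteins with a carbohydrate-recognition-like domain, and in myeloid cells many of them bind sugars on microbes or dying cells. Some signal positively through the adaptors Fcer1g or Tyrobp or through a motif of their own, which recruit the kinase Syk and then Card9, Bcl10 and Malt1, and some pair with the adaptor Hcst. Others carry an inhibitory motif that recruits the phosphatases Ptpn6 and Ptpn11. In mice the genes are clustered, with many of the myeloid receptors on chromosome 6.

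Positions are given on GRCm38. *Mgl2* (ENSMUSG00000040950) lies at chr11:70130329-70137550 and *Clec10a* (ENSMUSG00000000318) at chr11:70156197-70170834, both on the plus strand and 18.6 kb apart. Of the remaining genes, 6 are on chromosome 6. *Clec5a* lies alone at chr6:40574894-40585821. *Clec4a2* at chr6:123106428-123143999, *Clec4n* at chr6:123229843-123247021 and *Clec4d* at chr6:123262111-123275265 lie in one cluster. *Clec12a* at chr6:129342691-129365303 and *Clec7a* at chr6:129461591-129472779 lie in another. *Cd209a* is at chr8:3743397-3748984.

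*Mgl2* and *Clec10a* are close copies, so it matters whether reads can be told apart between them. The transcripts with the most reads over all 10 samples, Mgl2-201 with 996 coding bases and Clec10a-202 with 912, were identical at 91.7% of 912 aligned coding bases. Of the 31-base words in Mgl2-201, 76.7% were absent from every annotated *Clec10a* transcript, and of those in Clec10a-202, 75.3% were absent from every *Mgl2* transcript. Among the 36 pairs of the 9 genes, this was the 1 pair that shared any such word. The longest identical stretch spans 183 coding bases across exons 7 to 9 of both transcripts, and a read lying wholly within it could belong to either gene. In Mgl2-201 it covers chr11:70136337-70136699 and in Clec10a-202 chr11:70169822-70170189, introns included. It is shown in lower case because no base differs.

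Mgl2-201 and Clec10a-202, shared: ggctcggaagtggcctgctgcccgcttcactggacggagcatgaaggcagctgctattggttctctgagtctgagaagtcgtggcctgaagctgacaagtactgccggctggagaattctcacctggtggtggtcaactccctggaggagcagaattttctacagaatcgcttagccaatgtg

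Reads that cover the final exon can be assigned. The pair below is the 90-base coding stretch, aligned without gaps, in which the genes differ most, at 27 positions. It lies in exon 10 of both transcripts, at chr11:70136952-70137041 for *Mgl2* and chr11:70170449-70170538 for *Clec10a*, and capitals mark the bases that differ.

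Mgl2-201: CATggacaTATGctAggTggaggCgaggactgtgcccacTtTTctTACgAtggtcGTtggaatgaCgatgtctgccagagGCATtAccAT

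Clec10a-202: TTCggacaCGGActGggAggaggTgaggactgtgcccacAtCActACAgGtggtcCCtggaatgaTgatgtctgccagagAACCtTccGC

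The deleted gene was examined first. *Mpc2* measured 60.9–117 CPM (counts per 1e6 reads, scaled by edgeR's TMM factors) in WT GMPs and 17.1–43.9 CPM in recent *Mpc2* KO GMPs, without overlap. *Mpc2* fell with a log2 fold change of -1.46 (SE 0.24, edgeR adjusted p = 0.0156), and reads remained in every knockout sample. Per the paper the floxed part of *Mpc2* is exon 3, so reads from other exons of a deleted allele still count here. The extent of deletion cannot be read from these gene-level values. Over all 12381 genes tested, 41 passed an adjusted p of 0.05 in edgeR's quasi-likelihood test, 15 of them higher and 26 lower in recent *Mpc2* KO GMPs.

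Steady-state levels were compared between genes in WT GMPs on the TPM scale, which accounts for transcript length. *Clec12a*, an inhibitory receptor of myeloid cells, was the most abundant at 325 ± 36.2 TPM (SD, n = 5), 8.03-fold over the next gene. *Clec5a*, an activating receptor that pairs with Tyrobp and Hcst, followed at 40.4 ± 13.9 TPM. Neither gene overlapped the next in the order in any WT sample.

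*Mgl2*, a receptor for galactose and N-acetylgalactosamine known from dendritic cells and macrophages, was next at 15.5 ± 2.30 TPM. *Clec4d*, the receptor MCL that couples to Fcer1g, measured 15.4 ± 2.54 TPM and could not be placed above or below *Mgl2*, since *Mgl2* was higher in 3 of 5 WT samples. *Clec4a2*, an inhibitory receptor, followed at 11.4 ± 1.99 TPM, and its range overlapped that of *Clec4d*.

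*Clec7a*, which encodes the β-glucan receptor Dectin-1, measured 5.62 ± 1.39 TPM and *Clec10a*, the sister gene of *Mgl2*, 4.38 ± 0.459 TPM, again with overlapping ranges. *Clec4n* (the mannan receptor Dectin-2) reached 0.0719 TPM and *Cd209a* (a DC-SIGN homologue of dendritic cells) 0.00684 TPM on average. In recent *Mpc2* KO GMPs *Mgl2*, at 7.55 ± 2.13 TPM, was below *Clec4d*, at 21.8 ± 2.59 TPM, in every sample. It could not be placed above or below *Clec4a2*, at 8.82 ± 3.97 TPM, since their ranges overlapped.

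**Figure D1:**
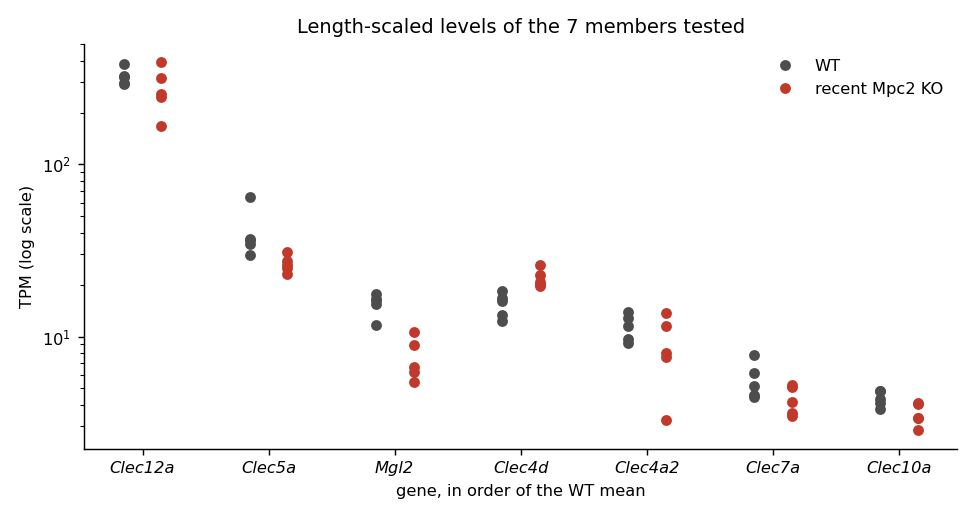
TPM of the 7 tested lectin genes on a log axis, with 1 point per sample, in the order of their WT means; WT samples are grey and recent *Mpc2* KO samples red. *Clec12a* lies above all other genes in both groups, and *Mgl2* and *Clec4d*, level in WT GMPs, separate in recent *Mpc2* KO GMPs.

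*Mgl2* measured 23.7, 26.1, 27.9, 29.1 and 18.7 CPM in WT replicates 1 to 5. In recent *Mpc2* KO replicates 1 to 5 it measured 11.1, 16.6, 9.53, 8.77 and 13.2 CPM. Every knockout sample lay below every WT sample, with the highest knockout value in replicate 2 close to the lowest WT value in replicate 5.

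Group means were 25.1 ± 4.10 CPM in WT GMPs and 11.8 ± 3.14 CPM in recent *Mpc2* KO GMPs (SD over 5 samples in each group), a log2 fold change of -1.09 (SE 0.17). No test is given for this difference because it chose the gene, and in bulk samples fewer cells with *Mgl2* RNA and less *Mgl2* RNA per cell cannot be told apart.

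Most *Mgl2* reads were assigned to Mgl2-201, which measured 14.3–23.5 CPM in WT and 6.82–12.6 CPM in recent *Mpc2* KO samples without overlap. A smaller share went to Mgl2-205, also coding, with 3.23–5.84 CPM in WT and 1.85–3.93 CPM in knockout samples, which overlapped. As a share of the gene's TPM, Mgl2-201 held 75.5% ± 6.8 in WT GMPs and 76.8% ± 5.4 in recent *Mpc2* KO GMPs, so the makeup by transcript differed by less than the spread between samples.

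*Clec10a* measured 6.41, 5.32, 6.35, 7.15 and 6.17 CPM in WT replicates 1 to 5. It measured 4.64, 4.83, 6.01, 5.54 and 4.23 CPM in recent *Mpc2* KO replicates 1 to 5. All 5 knockout samples were below the WT median, but the groups overlapped. The log2 fold change was -0.31 (SE 0.14) and did not pass the test (edgeR adjusted p = 0.458). Its reads were divided unevenly between transcripts, since Clec10a-202 held more than Clec10a-201 in all WT samples (57.7–83.6 and 16.6–46.6 reads) but fewer in knockout replicates 1, 3 and 4.

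Summing the reads of both genes removes any error in dividing shared reads. Over the WT samples the sum ranged from 24.9 to 36.2 CPM, and over the knockout samples from 14.3 to 21.4 CPM, again without overlap. Mean sums were 31.4 ± 4.34 and 16.9 ± 2.76 CPM, a log2 ratio of -0.89, and on the TPM scale the log2 ratio of the sums was -0.84. Summed TPM still depends on the division of reads, through transcript length. The fall was therefore present in the sum, to which *Clec10a* contributed the smaller part in every sample.

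The share of *Mgl2* in these reads was 75.2–83.0% in WT samples and 61.2–77.5% in recent *Mpc2* KO samples. The ranges overlapped, with knockout replicates 3 and 4 lowest at 61.2% and 61.3%. Like the sum, the share depends on *Mgl2* and is a description.

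**Figure D2:**
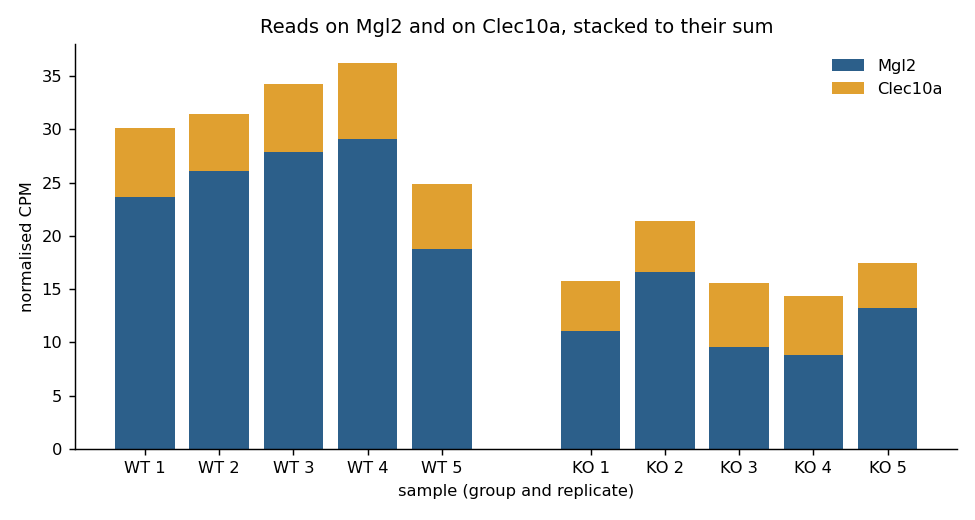
Stacked bars of normalised CPM on *Mgl2* (blue) and *Clec10a* (yellow) in each of 5 WT and 5 recent *Mpc2* KO (KO) samples. The full bars reach 24.9–36.2 CPM in WT samples and 14.3–21.4 CPM in knockout samples, and the blue part accounts for most of the difference.

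None of the 6 other tested lectin genes passed the adjusted test in edgeR, where 0.331% of all genes tested did (0.121% higher and 0.21% lower). At an unadjusted p under 0.05, 4 of the 6 passed, against 10.2% of all genes. Of these *Clec4d* was higher, as were 4.89% of all genes, and *Clec5a*, *Clec10a* and *Clec7a* were lower, as were 5.35%. *Clec10a* shares sequence with the selected gene *Mgl2*, so its value depends on how shared reads were divided. The genes were also chosen with earlier results of these data known, so this count is a description and no measure of an excess. In 5 of the 6 the log2 fold change was below 0, as in 50.4% of all genes, and their median was -0.33 beside -0.00 for all genes. DESeq2, which called 1.09% of genes, called none of the other 8 lectin genes and gave 4 of them an unadjusted p under 0.05, *Clec4n* included. Without the filter on low counts edgeR called 0.738% of genes, *Clec5a* among them.

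*Clec4d* was the only one of the 7 tested genes with a higher mean in the knockout. It measured 19.0, 18.8, 16.1, 15.6 and 21.3 CPM in WT replicates 1 to 5, and 31.9, 24.1, 22.9, 22.1 and 22.0 CPM in recent *Mpc2* KO replicates 1 to 5. The groups did not overlap, as was so for 2.43% of all genes tested and with the knockout higher for 1.11%. Replicate 1 stood above the other knockout samples, and replicate 5 was close to the highest WT sample. The log2 fold change was 0.43 (SE 0.12, edgeR adjusted p = 0.199), and 0.32 without knockout replicate 1.

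*Clec5a* had the largest decrease after *Mgl2*. It measured 47.1, 44.2, 41.7, 92.2 and 45.7 CPM in WT replicates 1 to 5, and 36.1, 41.1, 28.7, 30.4 and 35.6 CPM in recent *Mpc2* KO replicates 1 to 5. The groups did not overlap, as was so with the knockout lower for 1.32% of all genes, although WT replicate 3 and knockout replicate 2 were close. The log2 fold change of -0.65 (SE 0.20, edgeR adjusted p = 0.236) rested in part on WT replicate 4, and was -0.38 without it.

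*Clec7a* measured 7.0, 8.54, 7.90, 7.38 and 9.58 CPM in WT replicates 1 to 5, and 7.03, 7.97, 4.20, 6.45 and 6.24 CPM in recent *Mpc2* KO replicates 1 to 5. The groups overlapped. The log2 fold change was -0.35 (SE 0.16, edgeR adjusted p = 0.485), and -0.23 without knockout replicate 3.

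The inhibitory receptors *Clec12a* and *Clec4a2* showed, of the 7 tested genes, the widest spread relative to the mean within the knockout group. *Clec12a* measured 748–1055 CPM in WT samples, and 909, 1007, 428, 641 and 651 CPM in recent *Mpc2* KO replicates 1 to 5. Knockout replicates 1 and 2 lay within the WT range and the other 3 below it. The log2 fold change was -0.30 (SE 0.18, edgeR adjusted p = 0.631).

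*Clec4a2* measured 8.86–15.3 CPM in WT samples, and 13.01, 14.5, 3.32, 8.77 and 8.14 CPM in recent *Mpc2* KO replicates 1 to 5. The same knockout replicates, 1 and 2, were within the WT range. Its log2 fold change was -0.35 (SE 0.29, edgeR adjusted p = 0.753). Without knockout replicate 3 the log2 fold changes were -0.15 for *Clec12a* and -0.12 for *Clec4a2*.

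*Clec4n* and *Cd209a* were near the detection floor, which at 3 counts corresponds to 0.152–0.214 CPM per library and covers counting error only. *Clec4n* had 0, 1, 4, 2 and 0 counts in WT replicates 1 to 5 and 0, 11, 21, 7 and 8 counts in recent *Mpc2* KO replicates 1 to 5. In 4 of 5 knockout samples it lay above every WT sample, while knockout replicate 1 had none. Without the filter on low counts, its edgeR adjusted p was 0.221. *Cd209a* had at most 2 counts in any sample, and no difference could be detected at this depth.

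**Figure D3:**
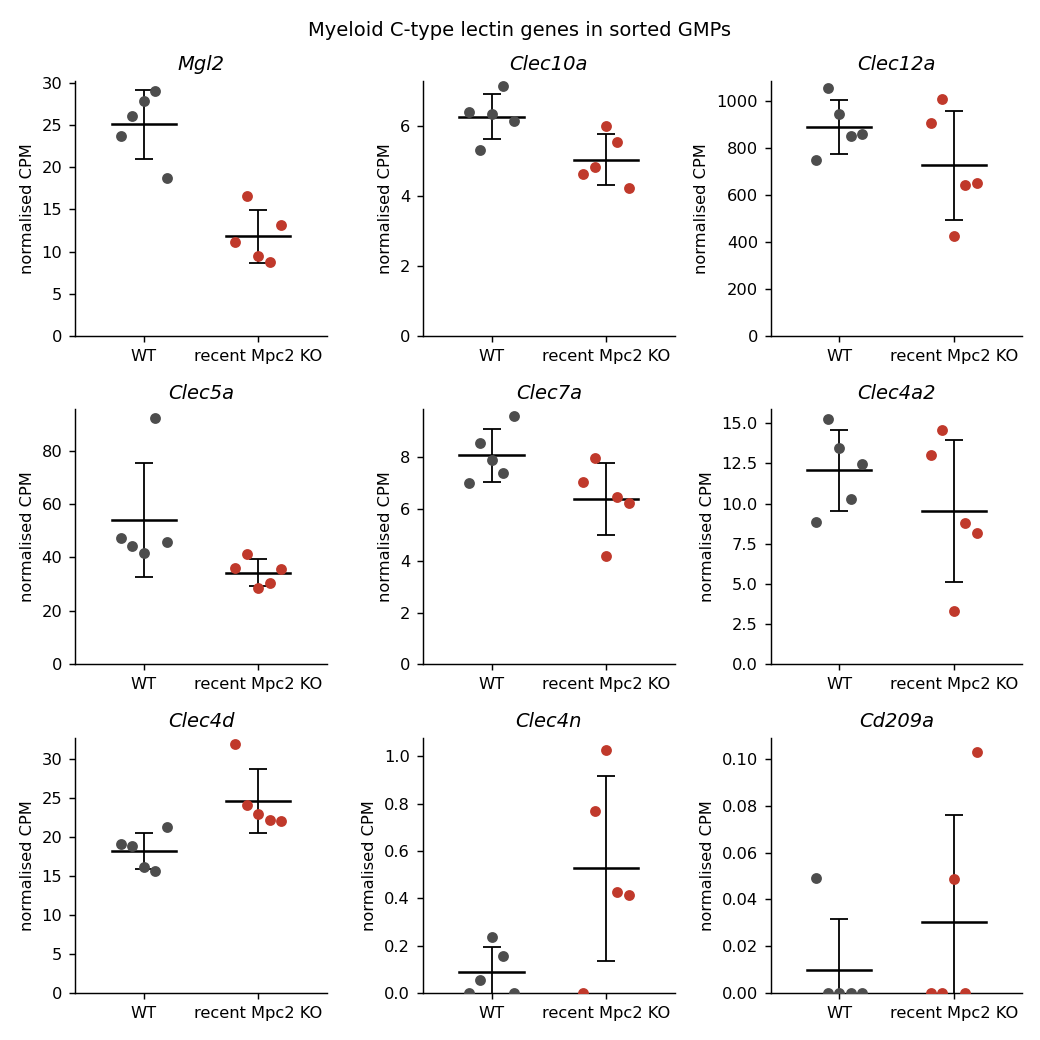
Normalised CPM of the 9 lectin genes, each panel with its own axis from 0; points are samples (grey WT, red recent *Mpc2* KO), horizontal bars are means and whiskers SD (n = 5). The groups separate for *Mgl2*, *Clec5a* and *Clec4d* and overlap for the other 6 genes, with WT replicate 4 high for *Clec5a*.

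Of the 7 tested genes, 4 (*Clec12a*, *Clec5a*, *Clec7a* and *Clec4a2*) had their lowest value of all 10 samples in recent *Mpc2* KO replicate 3. The same library had the lowest summed level of the 10 monocyte markers, at 1057 CPM, beside 2092–3810 CPM in the other knockout samples and 2732–4095 CPM in WT samples. It was also lowest for the 10 GMP markers, at 53778 CPM beside 70539–92060 and 90120–127365 CPM. None of these 20 marker genes passed the edgeR test, with 6 GMP and 5 monocyte markers lower at an unadjusted p under 0.05, as were 5.35% of all genes. Whatever the p, the log2 fold change was above 0 for 3 of the 10 GMP markers (highest 0.25). It was above 0 for 2 of the 10 monocyte markers (highest 0.34). All 20 passed the filter on low counts. Their part in the lectin values was not tested.

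*Mgl2*, *Clec10a* and *Cd209a* are otherwise known from dendritic cells and macrophages. Of 12 dendritic cell markers 7 were tested and 0 were called. At an unadjusted p under 0.05, 3 were higher and 0 lower, beside 4.89% and 5.35% of all genes. The log2 fold change was above 0 for 5 of the 7 and below 0 for 2, the lowest at -0.66. The groups did not overlap for *Flt3* (10.2–15.2 CPM in WT and 18.2–37.8 CPM in knockout samples, edgeR adjusted p = 0.0597) and *H2-Eb1* (0.311–1.20 and 1.32–2.47 CPM). Such a separation with the knockout higher was seen for 1.11% of all genes tested. *Flt3* is also named Flk2, and the paper sorts multipotent and common myeloid progenitors as Flk2+, so it does not mark dendritic cells alone. Over all 12 markers the levels summed to 71.0–89.0 CPM over WT samples and 85.9–118 CPM over knockout samples. *Zbtb46* and *Itgax* did not exceed 0.412 and 0.420 CPM in any sample, nor *Siglech*, *Batf3* and *Ccr7* 0.210 CPM. Of 10 macrophage markers 7 were tested, and *C1qa*, *C1qb* and *C1qc* rose in the knockout, where 0.121% of all genes were called higher (log2 fold changes of 1.25, 1.35 and 1.59, edgeR adjusted p = 0.0406, 0.0160 and 0.0383). Of the 7 tested macrophage markers, 6 had a log2 fold change above 0 and 1 below 0, at -0.39. The summed macrophage markers were 19.3–33.7 CPM in WT and 36.1–61.2 CPM in knockout samples. The part of these cell types in the lectin values was not tested.

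None of the neutrophil (9 of 10 tested), basophil, mast cell and eosinophil (8 of 8), erythroid (7 of 8) or B, T and NK cell (1 of 8) markers was called. At an unadjusted p under 0.05, 6 of 9 neutrophil and 5 of 7 erythroid markers were higher and none lower (median log2 fold changes of 1.4 and 1.95), and 2 of 8 basophil, mast cell and eosinophil markers were higher and 3 lower. Over all genes tested, 4.89% were higher and 5.35% lower at that threshold. Whatever the p, the log2 fold change was below 0 for 2 of the 9 neutrophil markers (lowest -0.28) and for 0 of the 7 erythroid markers. Their summed levels overlapped between groups, with WT and knockout medians of 368 and 501 CPM for neutrophil markers, 261 and 365 CPM for basophil, mast cell and eosinophil markers, and 23.2 and 126 CPM for erythroid markers. The lymphoid sum, with medians of 2435 and 1891 CPM, came almost wholly from *Nkg7* (medians of 2434 and 1889 CPM), and no other marker of that list exceeded 1.497 CPM. Their part in the lectin values was not tested.

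*Clec7a* showed a difference between samples in the transcript to which reads were assigned. A pair of annotated transcripts of nearly equal length, Clec7a-201 (protein coding, 2277 bases) and Clec7a-204 (annotated as a polymorphic pseudogene, 2272 bases), differ mainly at the junction of exons 2 and 3. The stretch below, on the minus strand within chr6:129468970-129470923, shows in capitals the 8 bases that differ, within a run of 9 between 25 shared bases on each side.

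Clec7a-201: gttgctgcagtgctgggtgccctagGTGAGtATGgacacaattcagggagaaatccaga

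Clec7a-204: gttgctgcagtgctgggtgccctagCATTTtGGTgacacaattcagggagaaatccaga

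In recent *Mpc2* KO replicate 2, 97.6 estimated reads were assigned to Clec7a-201 and 0.0 to Clec7a-204. In the other 9 samples Clec7a-201 had 0.0 reads, and Clec7a-204 had 78.2–124 in WT samples and 61.0–97.2 in the other knockout samples. Clec7a-202, which lacks the third exon, had 16.8–42.9 reads in WT and 8.8–32.9 in knockout samples. Clec7a-202 is shorter, at 707 bases, and held 54.5% ± 8.1 of the gene's TPM in WT GMPs. In recent *Mpc2* KO GMPs it held 50.7% ± 14.6. The TPM share of Clec7a-204 was 44.9% ± 7.1 in WT and 38.5% ± 25.9 in knockout samples, replicate 2 included. The gene total in knockout replicate 2, 7.97 CPM, lay within the WT range, and only 38 of the 31-base words of Clec7a-201 occur in neither of the other transcripts.

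**Figure D4:**
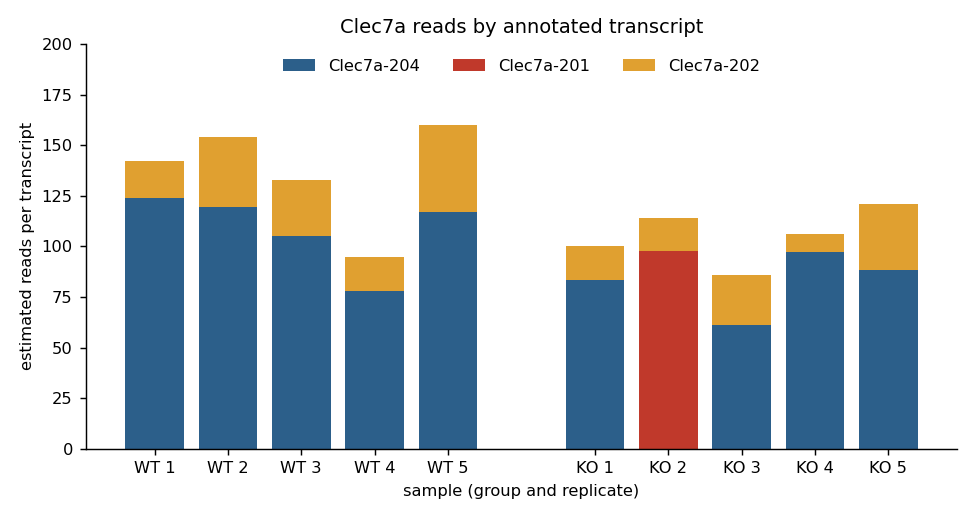
Estimated reads on 3 annotated *Clec7a* transcripts, stacked for each of 5 WT and 5 recent *Mpc2* KO (KO) samples. Clec7a-204 (blue) carries most reads in 9 samples, and Clec7a-201 (red) takes its place in knockout replicate 2.

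The wider family was examined through 45 further genes with a C-type lectin domain, of which 19 passed the filter. None passed the edgeR test, and DESeq2 called none. At an unadjusted p under 0.05, 3 were higher and 1 lower in recent *Mpc2* KO GMPs, beside 4.89% and 5.35% of all genes. The median log2 fold change was -0.08, with 7 genes above 0, 12 below and a range of -0.50 to 1.23. The highest was the mannose receptor *Mrc1*, named after its values were seen, at 0.445 ± 0.199 CPM in WT and 1.07 ± 0.346 CPM in knockout samples (SD, n = 5 each; edgeR adjusted p = 0.238).

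Among the most abundant were *Cd93* and the early activation antigen *Cd69*. *Cd93* measured 56.4 ± 9.06 CPM in WT and 54.5 ± 4.13 CPM in recent *Mpc2* KO GMPs (SD, n = 5 each; edgeR adjusted p = 0.913). *Cd69* measured 45.5 ± 8.83 and 38.7 ± 4.75 CPM (edgeR adjusted p = 0.551). Both overlapped between groups.

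*Clec4e*, chosen after its values were seen, encodes Mincle, the partner receptor of MCL from *Clec4d*. It measured 34.8 ± 5.33 CPM in WT and 45.6 ± 8.96 CPM in recent *Mpc2* KO GMPs, a log2 fold change of 0.39 (SE 0.14, edgeR adjusted p = 0.340). The direction was that of *Clec4d*, but the groups overlapped and the test was not passed.

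Of 25 genes for adaptors, kinases, phosphatases and transcription factors that act below these receptors, 24 passed the filter and 0 were called by edgeR or DESeq2. At an unadjusted p under 0.05, 2 were lower and 0 higher, beside 5.35% and 4.89% of all genes, a share close to this background. The median log2 fold change was -0.04, with a range of -0.47 to 0.18.

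The most abundant were *Tyrobp*, *Fcer1g* and *Ptpn6*. *Tyrobp* measured 355 ± 24.9 CPM in WT and 315 ± 44.4 CPM in recent *Mpc2* KO GMPs (SD, n = 5 each), and *Fcer1g* 259 ± 35.4 and 223 ± 18.0 CPM. *Ptpn6* measured 208 ± 10.2 and 189 ± 18.9 CPM, and the edgeR adjusted p was 0.555, 0.424 and 0.528, respectively. Of the 24 genes, the 1 whose groups did not overlap (2.43% of all genes) was *Card9*, named after its values were seen, at 13.8 ± 1.17 and 10.02 ± 1.88 CPM (log2 fold change -0.47, SE 0.13, edgeR adjusted p = 0.214).

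**Figure D5:**
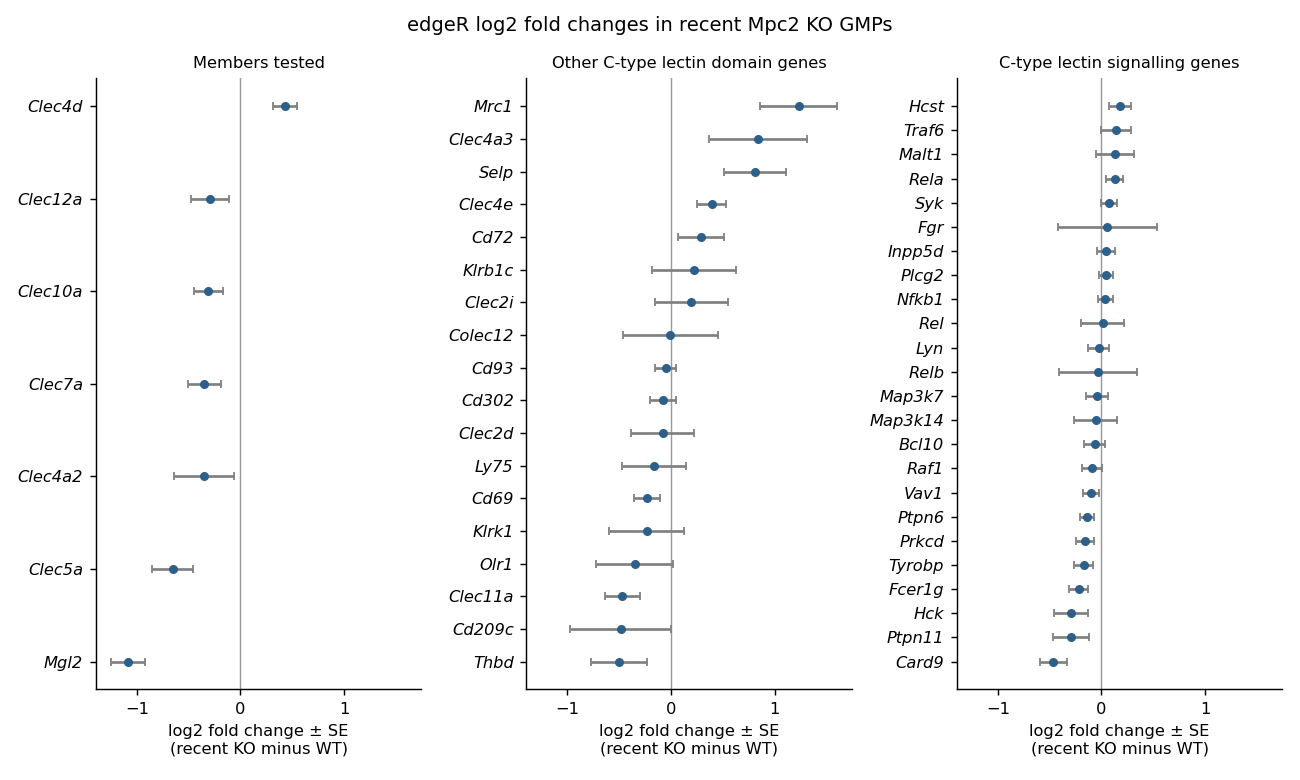
Log2 fold changes (recent *Mpc2* KO minus WT) from edgeR with SE for the 7 tested lectin genes, 18 of the other C-type lectin domain genes and 24 signalling genes. *Mgl2* at -1.09 is below every other gene shown, *Clec4d* is the only one of the 7 above 0, and the signalling genes lie between -0.47 and 0.18.

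Genes within 1 Mb of *Mgl2* on chromosome 11 were compared to see whether the fall extended along the locus. Of the other 61 genes tested there, 0 were called and 6 had an unadjusted p under 0.05 (9.84%, beside 10.2% of all genes tested). Their median log2 fold change was -0.00. Besides *Clec10a*, these 6 were *Cd68* (log2 fold change -0.20), *Tnfsf13* (-0.21), *Gps2* (-0.19), *Nlrp1a* (-0.56) and *Arrb2* (0.23). *Slc16a13*, the nearest tested gene after *Clec10a* at 79.2 kb, had a log2 fold change of -0.05.

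The genes whose log2 CPM followed *Mgl2* most closely over the 10 samples were *Fes* (Pearson r = 0.961), *Pgam1-ps2* (0.957), *Gm10524* (0.952), *Gmppa* (0.948) and *Gm42427* (0.945). These values include the difference between groups, which all 5 shared in direction. After subtraction of each group's mean, the closest were *Def6* (r = 0.954), *Fes* (0.949), *Tapbpl* (0.924), *Rps6ka1* (0.898) and *B430306N03Rik* (0.898). *Fes*, a myeloid tyrosine kinase, was the 1 gene in both groups of 5. It measured 96.5 ± 9.98 CPM in WT and 72.7 ± 12.2 CPM in recent *Mpc2* KO GMPs (SD, n = 5 each), and its log2 fold change was -0.41 (SE 0.11, edgeR adjusted p = 0.176). These correlations were ranked over all genes tested and are descriptions of these 10 libraries.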

How the data were processed

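CD45.2+ GMPs were sorted from mixed bone marrow chimeras, RNA was amplified with SMARTseq V4 and libraries were sequenced as paired 150-bp reads. Per the labels and the study's methods, the authors quantified transcripts with Salmon (version 1.5.1 in the submitters' processing notes) against Gencode M27. The deposited per-sample values are estimated counts, TPM and effective lengths per transcript. A deposited table of the authors' DESeq2 comparison (2.11.40.6 in the processing notes) was not used.

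Transcripts were summed to genes by Ensembl identifier through GENCODE M21 on GRCm38. Of 140789 transcripts, 137161 matched (97.4%), and the 3628 others, left out, held 0.348–0.390% of reads. All 45 transcripts of the 9 genes had the same length in the files and in GENCODE M21, from which sequences were read. Dividing reads between transcripts of 1 gene or between close copies is an estimate. Summed estimated counts were rounded, filtered with filterByExpr (minimum count 10), scaled by TMM and tested with edgeR 4.0.16 in R 4.3.3 by the quasi-likelihood test, two-sided, with Benjamini-Hochberg adjustment over 12381 genes at 0.05. CPM are counts per 1e6 of the effective library size. TPM were summed as deposited and used for levels between genes. DESeq2 1.42.0 and limma 3.58.1 served as alternatives, and the fits were tested on simulated data.

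The lectin genes, gene lists and markers were chosen with earlier results of these data known. Besides the 9 genes and *Mpc2*, the text names family and signalling genes that were called or among the 3 most abundant of their list, the 5 genes most correlated with *Mgl2* in 2 ways, and genes within 1 Mb of *Mgl2* at an unadjusted p under 0.05. Single marker genes were named from their lists by their values, without a mark, and *Slc16a13* by its distance from *Mgl2*. Family and signalling genes named after their values were seen are marked as such. An item of these lists is not reported here, though it is part of the counts.

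No replicate pair agreed within sampling noise (mean chi-square per gene of at least 6.71). The samples are separate biological replicates per the labels, but WT samples are single mice and knockout samples pools of 2, so the spread of the groups is not of the same kind. Alternatives were other normalisations, filters, tools and pseudocounts, a replicate block, and leaving out each sample.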

Additional observations from a re-analysis of the deposited data

Results flagged for a closer look

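Each value of the 7 tested lectin genes, of the sum of *Mgl2* and *Clec10a*, and of Clec7a-201 was compared within its group of 5 samples by Dixon's gap ratio (critical value 0.71), for 18 groups in all, of which chance would flag about 1 in 20. A gap above that value was found in 3 groups. *Clec5a* in WT replicate 4 was 92.2 CPM, beside 41.7–47.1 CPM in the other WT samples. *Clec4d* in recent *Mpc2* KO replicate 1 was 31.9 CPM, beside 22.0–24.1 CPM in the other knockout samples. Clec7a-201 in recent *Mpc2* KO replicate 2 had 97.6 estimated reads, beside 0.0 in the other knockout samples. With 1 value above 0.0 the gap ratio is 1.0 whatever that value, and the WT samples, all at 0.0, could not be flagged. The rate of 1 in 20 therefore does not apply to Clec7a-201, the only transcript included.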

How the results depend on the processing

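The log2 fold change of *Mgl2* kept its sign in all 20 alternatives and ranged from -1.23 to -0.97, and that of the *Mgl2* and *Clec10a* sum from -0.99 to -0.82 over 13. *Mgl2* was selected on its fall in these same samples, and neither its CPM nor the sum overlapped between groups. Leaving out 1 sample could therefore hardly change either sign, and these ranges are descriptions. All 6 other tested lectin genes kept their sign in every alternative. Without the filter on low counts 1 of them, *Clec5a*, was called (edgeR adjusted p = 0.00543, against 0.149 to 0.736 in its other alternatives), and 1 of the further family genes, *Selp*. No signalling gene was called under any alternative. Over all genes tested the count of calls, 41, changed to 206 without the filter on low counts, 156 with DESeq2, 25 by limma with a pseudocount of 1 TPM, 24 with one of 0.1 TPM, and 13 by limma without the filter. Leaving out 1 sample at a time gave 25 to 91 calls, the highest without recent *Mpc2* KO replicate 2. Same-numbered samples did not deviate together (correlations of -0.18 to 0.06), so no pairing by number was seen. These correlations cannot exclude that such samples were handled together. A replicate block left 20 calls, a log2 fold change of -1.10 for *Mgl2* and 0 calls among the other lectin genes. Depth limits *Clec4n* and *Cd209a*, and for *Clec10a* and *Clec7a* the 66–160 reads per sample limit the precision.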
